A study of Mus musculus with 37 samples.

Results

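Accessible chromatin inside genes was examined in fully grown mouse oocytes at the germinal vesicle (GV) stage, with and without Cabin1. A gene-body peak was a peak of transposase-accessible chromatin (ATAC-seq) whose summit lay between the start and the stop of a gene in the expression table of CabZ GV oocytes and more than 5 kb from the transcription start site (TSS) of every gene in that table. Of 316630 peaks in 6 libraries, 114179 (36.1%) met this definition. They numbered 14355, 23792 and 37518 in libraries A to C of CabZ Het, and 18749, 7723 and 12042 in libraries A to C of CabZ KO. The rule used positions only, so the height, the sequence and the genotype of a peak played no part in its choice. The median gene-body peak lay 37.9 kb from the nearest TSS. Just inside the limit of 5 kb were 3510 gene-body peaks at 5 to 6 kb from a TSS, and just outside it were 4065 peaks within genes at 4 to 5 kb, which were not counted.

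Both genotypes were on a C57BL/6 background and carried a floxed Cabin1 allele from which exon 6 is removed by Cre recombinase under the Zp3 promoter, which is active in growing oocytes and not in the somatic cells of the follicle. Both carried Zp3-Cre. In CabZ KO females both Cabin1 alleles were floxed, and in CabZ Het females (Zp3-Cre; Cabin1 flox/+) 1 was, so that the controls were heterozygous rather than wild type. According to the methods, all females were treated with pregnant mare serum gonadotrophin before their fully grown oocytes were taken. The ages of the females were not given in the sample records. Each of the 3 ATAC-seq libraries per genotype was made from about 100 pooled oocytes, and each of the 4 RNA-seq libraries per genotype from 10 pooled oocytes according to the methods, whereas the sample records describe single cells. Nothing states that the libraries of a genotype came from separate animals, so p-values measure only the spread between these samples, which may be technical.

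In ATAC-seq, a transposase cuts DNA that is not wrapped in nucleosomes or held in compact chromatin, and a peak marks a place where cuts pile up above the level of the whole library. Peaks near TSSs mostly mark promoters, whereas those inside genes can mark enhancers, alternative promoters or the looser chromatin that elongating RNA polymerase II leaves behind. The Hira complex (Hira, Ubn1 or Ubn2, and Cabin1) places the histone variant H3.3 into chromatin outside DNA replication, at promoters and along the bodies of transcribed genes. The GV oocyte of mice does not replicate its DNA, holds a large store of maternal RNA and condenses its chromatin as transcription stops at the end of growth.

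The following 200-base windows centre on summits of gene-body regions that the results below turn on. Coordinates are those of GRCm38 and all windows are read on the + strand. The first 3 are from the gene-body regions of highest fold enrichment that were found in all 6 libraries, the next 2 lead those found in all CabZ Het and no CabZ KO library, and the last 2 lead those found in all CabZ KO and no CabZ Het library. Capitals mark the central 50 bases, each of which had 1 exact copy in the genome sequence.
Cmss1/Filip1l intron, chr16:57391431-57391630, + strand: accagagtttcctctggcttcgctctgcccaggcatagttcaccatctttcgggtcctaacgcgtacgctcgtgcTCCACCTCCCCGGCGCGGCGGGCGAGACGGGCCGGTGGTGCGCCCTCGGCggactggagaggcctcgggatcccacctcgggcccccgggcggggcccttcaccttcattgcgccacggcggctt
Sfi1 intron, chr11:3172488-3172687, + strand: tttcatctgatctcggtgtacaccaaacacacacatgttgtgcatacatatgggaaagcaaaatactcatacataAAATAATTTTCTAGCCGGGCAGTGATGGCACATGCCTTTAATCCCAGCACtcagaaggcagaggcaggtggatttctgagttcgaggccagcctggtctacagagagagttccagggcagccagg
Tmem267 intron, chr13:119596788-119596987, + strand: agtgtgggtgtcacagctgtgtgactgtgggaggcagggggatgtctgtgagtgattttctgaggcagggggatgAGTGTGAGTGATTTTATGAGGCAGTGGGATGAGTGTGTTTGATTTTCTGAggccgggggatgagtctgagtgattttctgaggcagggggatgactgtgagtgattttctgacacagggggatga
Mier2 intron, chr10:79547975-79548174, + strand: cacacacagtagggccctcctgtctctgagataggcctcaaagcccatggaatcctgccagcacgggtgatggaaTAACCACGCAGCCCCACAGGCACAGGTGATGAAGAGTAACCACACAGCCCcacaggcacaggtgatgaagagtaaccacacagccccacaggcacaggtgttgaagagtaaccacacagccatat
Rasgef1b intron, chr5:99587360-99587559, + strand: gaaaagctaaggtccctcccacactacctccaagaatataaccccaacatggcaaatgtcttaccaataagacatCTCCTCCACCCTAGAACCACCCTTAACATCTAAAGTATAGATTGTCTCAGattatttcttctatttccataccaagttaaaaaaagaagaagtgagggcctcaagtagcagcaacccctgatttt
Lima1 intron, chr15:99792553-99792752, + strand: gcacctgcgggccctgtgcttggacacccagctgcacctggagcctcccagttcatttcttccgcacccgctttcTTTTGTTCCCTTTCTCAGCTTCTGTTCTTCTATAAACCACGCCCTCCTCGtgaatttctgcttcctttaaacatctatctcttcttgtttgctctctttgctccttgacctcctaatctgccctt
Adk intron, chr14:21143522-21143721, + strand: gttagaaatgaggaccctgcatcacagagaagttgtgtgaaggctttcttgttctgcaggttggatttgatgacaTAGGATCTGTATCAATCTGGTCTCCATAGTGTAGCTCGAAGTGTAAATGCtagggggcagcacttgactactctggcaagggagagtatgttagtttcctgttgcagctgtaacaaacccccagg
The Cmss1/Filip1l window was 70% G and C and held no soft-masked bases, which does not make it a single-copy sequence. Whether it belongs to a repeated sequence missing from the assembled chromosomes was not tested. Of the Sfi1 window 87.5% and of the Tmem267 window 63.5% were soft-masked repeat sequence. The central 25 bases had 8 exact copies in the genome for Sfi1 and 2 for Cmss1/Filip1l. Only the assembled chromosomes were searched, so copies missing from them, and copies with mismatches, were not counted. The windows of Mier2, Lima1 and Adk held no soft-masked bases, and 24% of the Rasgef1b window was masked.

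The deletion was visible in the RNA. Cabin1 (chr10:75646112-75764342) was read at 0.101, 0.0890, 0.159 and 0.128 FPKM in the 4 CabZ Het libraries and at 0.0482, 0.0231, 0.0125 and 0.0129 FPKM in the 4 CabZ KO libraries, and the genotypes did not overlap. FPKM here are fragments per kb of the whole gene span, introns included, so that long genes read low, and Cabin1 was under the filter of the across-gene test. In pooled oocytes, fewer cells that hold an RNA and less of it per cell cannot be told apart. All 12 oocyte markers were at or above 1 FPKM in mean, with a summed level of 3450 to 4868 FPKM in CabZ Het and 3587 to 3827 FPKM in CabZ KO libraries. None of the 7 granulosa and cumulus markers in the table reached 1 FPKM, their sum being 0.704 to 1.07 FPKM in CabZ Het and 0.914 to 1.42 FPKM in CabZ KO. The theca and stroma markers (2 of 4 in the table) summed to at most 0.172 FPKM, and the only blood marker in the table to between 0.818 and 2.98 FPKM. The number of ATAC-seq reads is unknown. The genome-wide background that the peak caller used could be recovered, and was a pileup of 1.54, 1.75 and 2.41 fragments in CabZ Het libraries and of 1.14, 1.22 and 1.03 fragments in CabZ KO libraries. The background was thus lower in every CabZ KO library (exact permutation p = 0.1, the smallest that 3 against 3 libraries allow), and the total number of peaks was 43399, 67074 and 111327 in CabZ Het and 46070, 19160 and 29600 in CabZ KO. Whether these differences contribute to the results below was not tested, apart from repeats with equal numbers of peaks per library.

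A larger share of the peaks lay inside gene bodies in CabZ KO oocytes than in CabZ Het oocytes. Gene-body peaks were 33.1, 35.5 and 33.7% of the peaks in the CabZ Het libraries, and 40.7, 40.3 and 40.7% of those in the CabZ KO libraries, each in the order A to C as throughout. The means were 34.1% ± 1.24 (SD, n = 3) and 40.6% ± 0.220 (SD, n = 3), and all 3 CabZ KO values were above all 3 CabZ Het values. The difference of 6.48 percentage points had a two-sided exact permutation p of 0.1, the smallest possible. Gene bodies away from TSSs make up 31.3% of the known bases of the genome, so that the share in CabZ Het was close to that of the genome and the share in CabZ KO was above it. Peaks within 5 kb of a TSS made up 14.9% ± 0.715 (SD, n = 3) in CabZ Het and 17.2% ± 0.362 (SD, n = 3) in CabZ KO, and peaks outside genes 51.0% ± 1.72 and 42.2% ± 0.517 (SD, n = 3 each; exact permutation p = 0.1 for both places). When each library was reduced to the same number of peaks, the gene-body difference was 7.75 points. With only peaks of a −log10 q of at least 5 it was 10.4 points (exact permutation p = 0.1 both times).

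**Figure D1:**
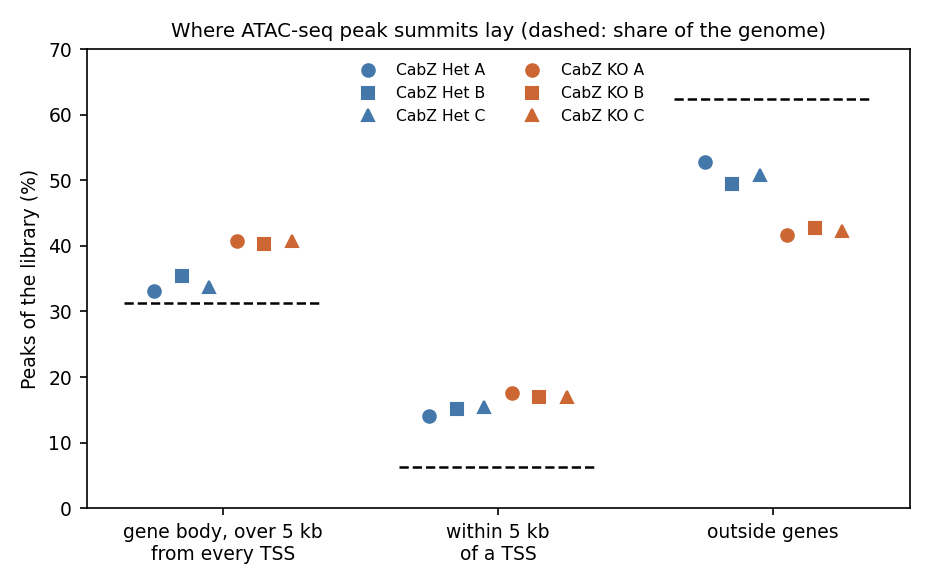
Share of ATAC-seq peak summits (%, vertical axis) inside gene bodies, within 5 kb of a TSS and outside genes in each of 3 CabZ Het and 3 CabZ KO libraries (points); dashed lines give the share of the genome in each place. The gene-body share was 33.1 to 35.5% in CabZ Het and 40.3 to 40.7% in CabZ KO, against 31.3% of the genome.

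Genes of at least 10 FPKM held more gene-body peaks per kb of body than genes under 0.1 FPKM. The excess was larger in CabZ KO oocytes, and in CabZ Het oocytes it did not hold in every measure. Density was counted as peaks per Mb of gene body more than 5 kb from every TSS, a length of 849.6 Mb over 13895 of the 19033 genes in the table, and genes were divided by the mean FPKM of their genotype. In genes under 0.1 FPKM the density was 17.4, 27.5 and 44.3 peaks per Mb for CabZ Het and 18.8, 7.45 and 11.9 for CabZ KO. In genes of at least 10 FPKM it was 23.1, 40.2 and 58.5 peaks per Mb in CabZ Het and 46.2, 24.3 and 34.1 in CabZ KO. The density fold of the highest over the lowest class, which compares classes within a library, was 1.33, 1.46 and 1.32 in CabZ Het (mean 1.37 ± 0.0812, SD, n = 3) and 2.45, 3.26 and 2.86 in CabZ KO (mean 2.86 ± 0.405, SD, n = 3). It was above 1 in all 6 libraries (mean log2 fold 0.98, two-sided exact sign-flip permutation p = 0.03125, the smallest that 6 libraries allow). The folds of the genotypes did not overlap, with a difference of 1.05 on the log2 scale (two-sided exact permutation p = 0.1, the smallest possible). When the same peaks were divided by the whole gene span, in which the 5 kb around TSSs counts as length but can hold no gene-body peak, the log2 fold was −0.13, 0.01 and −0.14 in CabZ Het and 0.76, 1.17 and 0.98 in CabZ KO libraries. The excess was then absent or reversed in CabZ Het, and its mean over 6 libraries of 0.44 did not pass (exact sign-flip permutation p = 0.21875), while the genotypes still did not overlap.

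The classes in between were ordered the same way in the means of both genotypes, but not in CabZ Het A, where genes at 0.1 to 1 FPKM held 16.6 peaks per Mb and genes under 0.1 FPKM 17.4. Over the class under 0.1 FPKM, the density of genes at 1 to 10 FPKM was 1.14-fold ± 0.0590 in CabZ Het and 2.00-fold ± 0.120 in CabZ KO, and that of genes at 0.1 to 1 FPKM was 1.03-fold ± 0.0745 and 1.52-fold ± 0.0466 (SD, n = 3 each; exact permutation p = 0.1 for both). Relative to all gene bodies of the same library, the lowest class held 0.978 ± 0.0232 of the mean density in CabZ Het and 0.812 ± 0.0167 in CabZ KO, and the highest class 1.34 ± 0.0567 and 2.32 ± 0.281 (SD, n = 3 each; exact permutation p = 0.1 for both). These values are shares of 1 total, so that the large lowest class has to fall when the others rise. The highest class is small, with 183, 319 and 464 peaks in CabZ Het libraries and 363, 191 and 268 in CabZ KO libraries. Among peaks of a −log10 q of at least 5 the log2 difference between genotypes was 0.41 and the genotypes overlapped (exact permutation p = 0.3). With expression as reads scaled to library size only, not divided by length, the difference was 0.57 (p = 0.1, exact permutation).

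**Figure D2:**
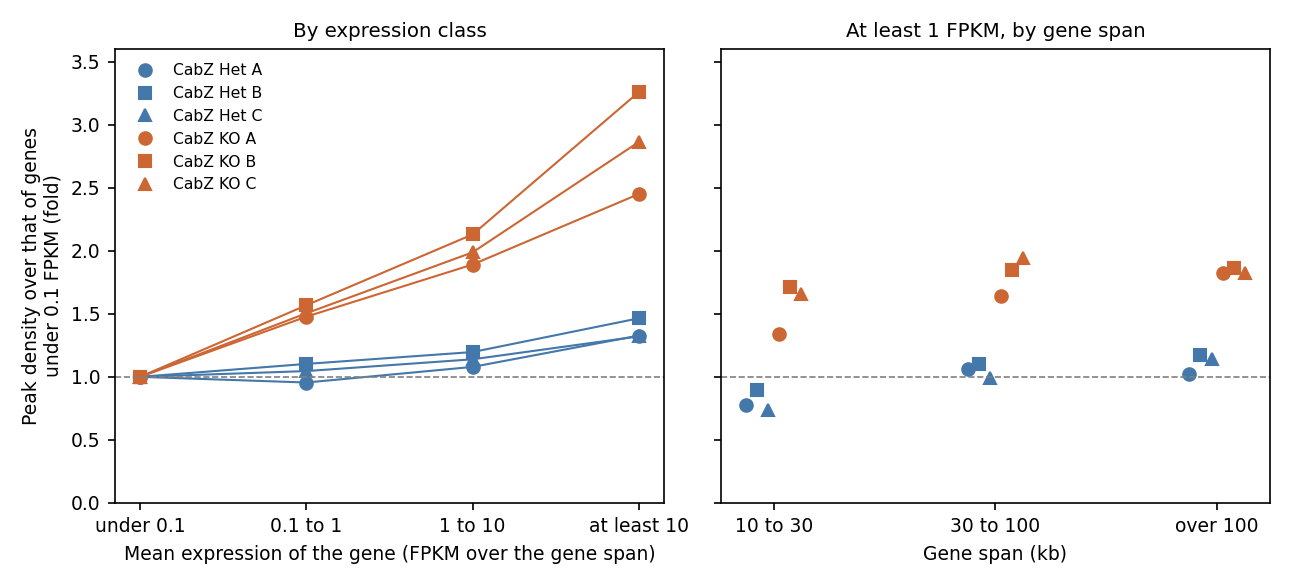
Gene-body peak density over that of genes under 0.1 FPKM (fold, vertical axis), for each of 3 CabZ Het and 3 CabZ KO libraries (points), by expression class (left) and, for genes of at least 1 FPKM, by gene span (right). In the class of at least 10 FPKM the 3 CabZ KO libraries lie at 2.45 to 3.26 and the 3 CabZ Het libraries at 1.32 to 1.46.

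Gene length enters both the density and the FPKM, so the comparison was repeated within length bins, with genes of at least 1 FPKM as an upper class chosen after seeing the data. In genes of 10 to 30 kb, the density over that of genes under 0.1 FPKM was 0.773, 0.895 and 0.736 in CabZ Het libraries and 1.34, 1.71 and 1.66 in CabZ KO libraries. Here the genotypes lay on opposite sides of 1. In genes of 30 to 100 kb the values were 1.06, 1.10 and 0.992 in CabZ Het and 1.64, 1.85 and 1.94 in CabZ KO, and in genes over 100 kb they were 1.02, 1.17 and 1.14 in CabZ Het and 1.83, 1.86 and 1.83 in CabZ KO. Within every length bin the 2 genotypes did not overlap, with log2 differences of 0.97, 0.78 and 0.73 (two-sided exact permutation p = 0.1 each). In CabZ Het oocytes the excess depended on the class: genes of at least 10 FPKM kept one within the span of 30 to 100 kb, with log2 folds of 0.55, 0.22 and 0.25, whereas in genes of 10 to 30 kb their log2 folds were −0.16, 0.24 and −0.21. The base composition of the bodies differed little between classes, from 42.2% G and C under 0.1 FPKM to 42.9% at 1 to 10 FPKM. Within 7 strata of G and C content the fold for genes of at least 1 FPKM was 0.932 to 1.40 in CabZ Het and 1.69 to 3.13 in CabZ KO libraries.

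Against intergenic sequence near genes of the same class, gene bodies were poorer in peaks in CabZ Het oocytes and richer in CabZ KO oocytes, whatever the class above 0.1 FPKM. Stretches of 1 kb were pooled by class, so no gene was paired with its own flank. A body stretch took the highest class of the genes over it. A flank stretch lay in no gene and over 5 kb from every TSS. It took the highest class of any gene within 50 kb, also of genes without a body. In the class of at least 10 FPKM, 7643 kb of body stood against 77954 kb of flank. Classes were set from all 8 RNA-seq libraries so that both genotypes had the same genes. For genes of at least 10 FPKM, body over flank density was 0.845, 0.984 and 0.853 in CabZ Het libraries and 1.76, 2.16 and 2.00 in CabZ KO libraries. Genes at 1 to 10 FPKM gave 0.732, 0.848 and 0.758 in CabZ Het and 1.45, 1.51 and 1.44 in CabZ KO. For genes at 0.1 to 1 FPKM the means were 0.806 ± 0.0795 and 1.41 ± 0.0400, and for genes under 0.1 FPKM 0.949 ± 0.0654 and 1.21 ± 0.00440 (SD, n = 3 each). The genotypes did not overlap in any class (two-sided exact permutation p = 0.1 each), and the log2 difference was 0.36 in the lowest class and 1.14 in the highest. Among peaks of a −log10 q of at least 5 the latter was 0.54 and the genotypes overlapped (exact permutation p = 0.2).

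**Figure D3:**
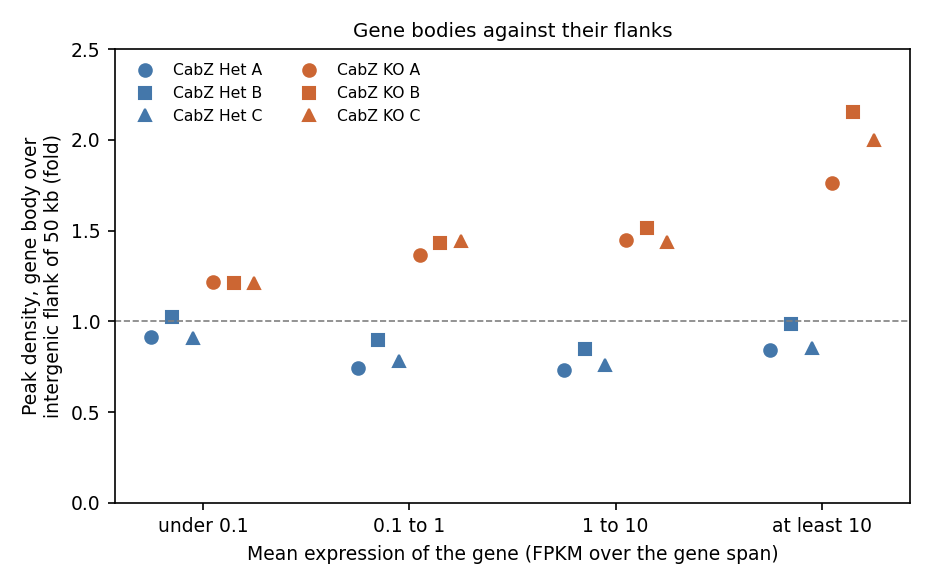
Peak density in gene bodies over that in intergenic sequence within 50 kb of genes of the same class (ratio, vertical axis), pooled by expression class, for each of 3 CabZ Het and 3 CabZ KO libraries (points). In the 3 classes from 0.1 FPKM up, the CabZ Het libraries lie below 1 and the CabZ KO libraries above it, at 1.37 to 2.16.

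Gene by gene the relation was weak. Across the 9953 genes with at least 10 kb of body, Spearman's rho of density against FPKM was −0.094, −0.018 and −0.047 in CabZ Het libraries and 0.089, 0.031 and 0.064 in CabZ KO libraries. In the 2276 genes over 100 kb, which hold most peaks each, rho was 0.034, 0.15 and 0.11 in CabZ Het and 0.29, 0.21 and 0.27 in CabZ KO. These genes share libraries, depth and gene length, so rho is a description across genes. The change in relative density between genotypes and the log2 fold change of RNA were nearly unrelated across the 1631 genes that could be compared (rho 0.059). Most genes held few or no peaks, since 9636 genes had a gene-body peak in any library and 1903 in all 6.

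Within genes, the peaks were spread over exons and introns almost in proportion to their length. The summit lay in an exon for 7.76 to 8.59% of gene-body peaks in CabZ Het libraries and 8.45 to 9.29% in CabZ KO libraries, and exons make up 7.74% of the bodies. The density of exons over that of introns was 1.05 ± 0.0633 in CabZ Het and 1.14 ± 0.0673 in CabZ KO (SD, n = 3 each; two-sided exact permutation p = 0.3). In genes with 50 kb or more of span, the density was highest in the first of 5 equal parts. For genes of at least 1 FPKM, the middle part over the first was 0.680, 0.783 and 0.714 in CabZ Het and 0.830, 0.749 and 0.874 in CabZ KO libraries. The last part over the first was 0.633, 0.730 and 0.823 in CabZ Het and 0.896, 0.740 and 0.874 in CabZ KO (mean log2 ratio −0.36, below 0 in 6 of 6 libraries, two-sided exact sign-flip permutation p = 0.03125). The drop thus lay after the first part, without a steady fall from there to the end, and the genotypes overlapped. Genes under 0.1 FPKM also held fewer peaks per Mb in the last part than in the first in all 6 libraries, for example 19.2 and 14.6 in CabZ Het A and 13.0 and 10.7 in CabZ KO C. Among the chromosomes, chromosome 1 was above the density of all gene bodies in every library, at 1.12 to 1.91 of it, and chromosome 19 below it in every library, at 0.247 to 0.745. Chromosome X lay at 0.664, 0.809 and 0.491 in CabZ Het and at 0.673, 1.11 and 0.751 in CabZ KO libraries, which overlapped (exact permutation p = 0.4).

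The DNA under gene-body peaks was somewhat richer in G and C than the bodies around them and poorer in G and C and in GC boxes than the peaks near TSSs. Mean G and C content of windows around gene-body summits was 44.9 to 46.9% per library, above the 42.4% of gene bodies as a whole in all 6 libraries (two-sided exact sign-flip permutation p = 0.03125). Soft-masked repeats filled 24.4 to 27.7% of these windows against 28.1% of gene bodies (p = 0.03125, exact sign-flip permutation). Compared with peaks near TSSs of the same library, gene-body peaks were lower in G and C by a mean of 3.78 percentage points and lower in CpG dinucleotides in all 6 libraries (exact sign-flip permutation p = 0.03125 for both). Between genotypes, G and C content was 45.9% ± 0.880 in CabZ Het and 45.5% ± 0.881 in CabZ KO, and the masked share 25% ± 0.821 and 27.0% ± 0.922 (SD, n = 3 each; two-sided exact permutation p = 0.6 and 0.2).

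Short motifs were searched on both strands in windows of 201 bases around each summit and in 827907 windows tiled over gene bodies. The E-box CANNTG, the core site of helix-loop-helix factors such as Figla, was present in 73.2 to 76.8% of the gene-body windows with a peak per library and in 66.6% of the tiled windows. The GC box GGGCGG, bound by Sp factors at CpG-rich promoters, was present in 2.41 to 3.10% of gene-body peaks, 1.99% of tiled windows and 7.91 to 15.9% of peaks near TSSs. The 12-letter core motif of CTCF, which anchors chromatin loops, was found in 0.241 to 0.592% of gene-body peaks and 0.111% of tiled windows. These 3 motifs were more frequent in peaks than in tiled windows in 6 of 6 libraries (exact sign-flip permutation p = 0.03125 each). Conversely, TATAAA was present in 10.9 to 14.1% of gene-body peaks and 18.4% of tiled windows, and CCAAT in 24.4 to 26.6% and 26.8% (lower in 6 of 6 libraries; exact sign-flip permutation p = 0.03125 each). Peaks outside genes were close to gene-body peaks in most of these shares, with the E-box in 72.1 to 75.4%, the GC box in 2.14 to 3.12%, the CTCF motif in 0.224 to 0.781% and TATAAA in 10.6 to 13.9% of them. None of these 4 passed the test between the 2 kinds of peak (exact sign-flip permutation p = 0.0625, 0.0625, 0.0625 and 0.59). CCAAT did pass: it was present in 27.8 to 28.9% of peaks outside genes. The mean difference of gene-body peaks from these was −3.07 percentage points (lower in 6 of 6 libraries, exact sign-flip permutation p = 0.03125). TATAAA was more frequent in gene-body peaks than in those near TSSs, by a mean of 3.34 percentage points (6 of 6 libraries, exact sign-flip permutation p = 0.03125), and CCAAT, at 24.7 to 26.4% near TSSs, did not pass that comparison (p = 0.34, exact sign-flip permutation). Against tiled windows, the AP-1 site TGANTCA, the nuclear receptor element AAGGTCA and the cyclic AMP response element TGACGTCA did not pass (exact sign-flip permutation p = 0.0625, 0.125 and 0.47). The AP-1 site was less frequent in gene-body peaks than in peaks outside genes, with a mean difference of −0.23 percentage points (exact sign-flip permutation p = 0.03125). A match is a stretch of letters and not a site of binding, and the base composition of the windows, given above, moved together with these shares. Its part in them was not tested.

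Few gene-body peaks were found in every library. Merged where they overlapped by at least 1 bp, the peaks of the 6 libraries formed 187090 regions, of which 67000 were gene-body regions by the summit of highest enrichment. Of these, 65.8% were found in 1 library only and 701 in all 6. Within a genotype, CabZ Het B and C shared 11781 regions, which are 51.1% of B and 32.3% of C, and across genotypes CabZ Het C and CabZ KO B shared 3937, which are 10.8% of C and 53.5% of KO B. The lists differ in length, so these shares were not compared. The peaks were mostly low. The median fold enrichment at the summit over the genome background was 3.94, 4.0 and 3.52 in CabZ Het and 4.21, 4.5 and 4.43 in CabZ KO libraries, from a median pileup of 8 to 11 fragments, and 5 to 12 gene-body peaks per library reached a fold enrichment of 10.

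**Figure D4:**
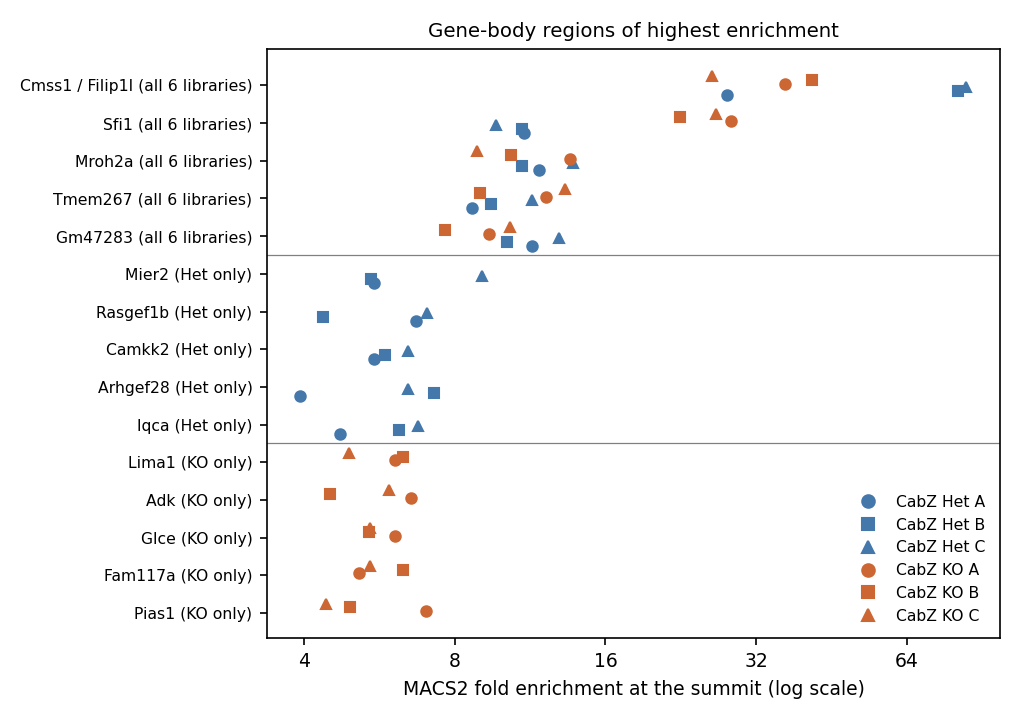
Fold enrichment at the summit over the genome background (log scale, horizontal axis) of the gene-body regions of highest enrichment, for each of 3 CabZ Het and 3 CabZ KO libraries (points). At Sfi1 the CabZ KO libraries lie at 22.5 to 28.6 and the CabZ Het libraries at 9.68 to 11.0, whereas at Cmss1/Filip1l the genotypes overlap.

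The highest region lay in an intron shared by Cmss1 and the antisense-oriented Filip1l (chr16:57391120-57391819), with a fold enrichment of 28.0, 81.1 and 84.2 in CabZ Het libraries and 36.5, 41.4 and 26.1 in CabZ KO libraries. The genotypes overlapped, and the difference of −0.76 on the log2 scale did not pass (limma, SE 0.27, adjusted p = 0.43). It was followed by an intronic region of Sfi1 (chr11:3171639-3173170), which encodes a centrosomal protein, at 11.0, 10.9 and 9.68 in CabZ Het and 28.6, 22.5 and 26.6 in CabZ KO. The third, in Mroh2a (chr1:88220575-88270267), was a chain of overlapping peaks with its highest summit in an exon, at 10.9 to 13.8 in CabZ Het and 8.86 to 13.6 in CabZ KO. Tmem267 (chr13:119596405-119600387) stood at 8.66 to 11.4 and 9.0 to 13.3, and Gm47283 (chrY:90796924-90812941), which lies in the pseudoautosomal sequence that the X and Y chromosomes share, at 10.2 to 12.9 and 7.65 to 10.3. At these last 3 regions the genotypes overlapped. In the window of Gm47283, the central 25 bases had 102 exact copies in the genome and 74% of bases were masked, beside 8 copies in that of Sfi1, 2 in that of Cmss1/Filip1l and 1, the window itself, in that of Tmem267. The part of such copies in these heights was not tested.

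Fold enrichment was tested in the 701 gene-body regions within a fit of all 1813 regions found in all 6 libraries. Sfi1 was the only gene-body region that changed, higher in CabZ KO by 1.29 on the log2 scale (SE 0.21, limma with Benjamini-Hochberg adjusted p = 3.9e-04), and 0 were lower. Over all 1813 regions 0.11% were called higher and 0.0552% lower, so the rate in gene bodies was near that of all regions. At an unadjusted limma p under 0.05, 47 gene-body regions were higher and 5 lower in CabZ KO, beside 5.07% and 1.6% of all 1813 regions (92 and 29). The median log2 difference was 0.10 over gene-body regions and 0.06 over all regions. The scale matters here, since the enrichment holds a pseudocount of 1 in both terms and the background was lower in CabZ KO: as pileup over background without the pseudocount, 66 gene-body regions were higher and 0 lower, beside 7.5% and 0.0552% of all regions (136 and 1), and the median of all regions moved to 0.32. With the medians of the libraries aligned, 1 gene-body region was higher and 2 were lower, beside 2 and 9 of all regions.

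Regions held by a single genotype were more numerous in CabZ Het, where more peaks were called. Of the 67000 gene-body regions, 1140 (1.70%) were found in all 3 CabZ Het and no CabZ KO library, beside 2.06% of all 187090 regions. In the opposite direction 116 (0.173%) were found in all 3 CabZ KO and no CabZ Het library, beside 0.11% of all regions. Gene-body regions were thus 29.6% of all regions of the first kind and 56.6% of those of the second. With the same number of peaks per library there were 180 and 219 gene-body regions of the 2 kinds, beside 640 and 433 of all regions. Without CabZ Het replicate A there were 4683 and 128, beside 15245 and 233. The CabZ Het regions of highest enrichment lay in introns of Mier2 (chr10:79547282-79548870; fold enrichment 5.51, 5.46 and 9.09), Rasgef1b (chr5:99586229-99588198; 6.69, 4.36 and 7.04), Camkk2, which encodes a calcium-dependent kinase, Arhgef28 and Iqca. Those of CabZ KO lay in introns of Lima1, which encodes an actin-binding protein (chr15:99790580-99793447; 6.09, 6.30 and 4.92), Adk, which encodes adenosine kinase (chr14:21143014-21144455; 6.56, 4.5 and 5.90), Glce, Fam117a and Pias1.

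Ranked by count, the genes with most recurrent gene-body peaks were mostly long genes with little RNA, and most long genes in the table had little RNA. Ranked by gene-body regions found in all 6 libraries, the first 10 were Gm20388 with 21, Gse1 with 6, Gpc5 with 5, Dock9, Rps6kc1, Clybl and Esrrg with 4, and Sdk1, Pde6d and Mad1l1 with 3. The model of Gm20388 spans 4435 kb and 83 other genes of the table, so its peaks are largely those of other genes. In 8 of the 10 genes the mean level over all RNA-seq libraries was under 0.1 FPKM. A count of regions favours long genes. Of the genes over 100 kb, 1552 were under 0.1 FPKM and 87 at or above 1 FPKM in CabZ Het, so this level is no trait of the peaks. Gse1 (chr8:120228456-120581391) held 16, 23 and 39 peaks in CabZ Het and 19, 11 and 18 in CabZ KO libraries. Its density relative to all gene bodies of the library, in which 1 is the mean, was 2.65, 2.3 and 2.47 in CabZ Het and 2.40, 3.37 and 3.54 in CabZ KO, so that Gse1 was above the mean in all 6 libraries.

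Clybl and Pde6d were the members of this group with more RNA. Clybl (chr14:122181704-122402235), which encodes a mitochondrial lyase, held 14, 26 and 28 peaks in CabZ Het and 18, 18 and 21 in CabZ KO libraries, at a relative density of 3.75, 4.2 and 2.86 and of 3.67, 8.90 and 6.67. Its RNA was 0.748 to 0.864 FPKM in CabZ Het and 0.669 to 0.884 FPKM in CabZ KO. Pde6d (chr1:86542994-86582630), which encodes a carrier of prenylated proteins, is only 39.6 kb long, and held 9, 7 and 9 peaks in CabZ Het and 4, 8 and 5 in CabZ KO libraries. Its relative density was 15.0, 7.04 and 5.72 in CabZ Het and 5.07, 24.6 and 9.88 in CabZ KO, which overlap. The RNA of Pde6d was 18.3, 19.8, 14.1 and 14.4 FPKM in CabZ Het and 9.35, 7.63, 11.7 and 11.8 FPKM in CabZ KO, lower by 0.67 on the log2(FPKM + 1) scale (SE 0.16, limma adjusted p = 0.022), which was short of the fold change of 2 required for a call.

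Among the 4100 genes with at least 50 kb of body, the highest mean densities were in Klhl5, Rcsd1, Mdm4, Fbxo36, Igfbp7, Fbxo34, Paqr5, Gpbp1, Myrfl and B3galt5. Of these, 5 were under 0.1 FPKM and 3 at or above 1 FPKM. Mdm4 (chr1:132959484-133030562), a regulator of p53, held 3, 10 and 17 peaks in CabZ Het and 10, 6 and 2 in CabZ KO libraries, a relative density of 2.82, 5.68 and 6.11 and of 7.16, 10.4 and 2.23. Its RNA was 39.6, 37.5, 42.6 and 45 FPKM in CabZ Het and 47.1, 36, 45.6 and 45.4 FPKM in CabZ KO (limma adjusted p = 0.74). Fbxo34 (chr14:47450421-47531963), an F-box protein gene at 1.73 to 2.64 FPKM in CabZ Het and 1.98 to 4.04 FPKM in CabZ KO, held 4, 9 and 15 peaks in CabZ Het and 8, 6 and 12 in CabZ KO libraries. The relative density of Fbxo34 was 3.01, 4.09 and 4.32 in CabZ Het and 4.59, 8.35 and 10.7 in CabZ KO, which did not overlap.

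Single genes whose relative density separated the genotypes were counted in the same 4100 genes. In 343 genes (8.37%) all 3 CabZ KO libraries were above all 3 CabZ Het libraries, and in 394 (9.61%) all were below. The split went with the level of RNA. Of the 342 genes at or above 1 FPKM, 46 (13.5%) were higher and 17 (4.97%) lower in CabZ KO, whereas of the 2364 genes under 0.1 FPKM, 145 (6.13%) were higher and 299 (12.6%) lower. The genes named next were those with the largest differences, chosen after their values were seen, and their densities are therefore given without a test.

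Map2k1 (chr9:64185770-64253632), which encodes the kinase MEK1, held 3, 4 and 5 peaks in CabZ Het and 9, 6 and 7 in CabZ KO libraries, at a relative density of 3.27, 2.63 and 2.08 and of 7.47, 12.1 and 9.06. Its RNA did not pass the test, at 1.68 to 2.01 FPKM in CabZ Het and 1.31 to 2.43 FPKM in CabZ KO. Lima1 held 0, 2 and 1 peaks in CabZ Het and 8, 6 and 8 in CabZ KO libraries, at under 0.1 FPKM in both genotypes. Glce, which encodes an epimerase of heparan sulphate synthesis, held 2, 3 and 7 peaks in CabZ Het and 6, 4 and 8 in CabZ KO, at 1.53 to 1.72 FPKM and 1.38 to 2.29 FPKM. Lima1 and Glce each also held one of the regions found only in CabZ KO. Map2k1 and Glce lie on chromosome 9, where gene bodies as a whole were denser in CabZ KO. The part of the chromosome in the values of these 2 genes was not tested. Tsc22d1, a leucine zipper gene, held 0, 2 and 3 peaks in CabZ Het and 7, 3 and 4 in CabZ KO, at 4.82 to 6.30 FPKM and 3.70 to 7.33 FPKM.

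In the other direction, Klhl5 (chr5:65107539-65168189) held 11, 13 and 17 peaks in CabZ Het and 3, 2 and 3 in CabZ KO libraries, and Rcsd1 (chr1:165646516-165709758) held 12, 12 and 16 and then 5, 1 and 1. Both were at under 0.1 FPKM in every library. Of genes at or above 1 FPKM, Hmgb1 (chr5:149046702-149184490), which encodes an abundant DNA-bending protein, held 12, 16 and 15 peaks in CabZ Het and 2, 2 and 0 in CabZ KO libraries. Its relative density was 5.66, 4.55 and 2.70 in CabZ Het and 0.718, 1.74 and 0 in CabZ KO. N4bp2l2, on the same chromosome, held 7, 8 and 8 peaks and then 3, 0 and 0. The RNA of neither gene passed the test, with Hmgb1 at 1.74 to 2.13 FPKM in CabZ Het and 2.00 to 2.21 FPKM in CabZ KO, and N4bp2l2 at 2.77 to 3.41 FPKM and 2.70 to 3.18 FPKM. Klhl5, Hmgb1 and N4bp2l2 all lie on chromosome 5. Its gene bodies as a whole had a relative density of 1.65, 1.84 and 1.39 in CabZ Het and 0.987, 1.66 and 1.22 in CabZ KO, which overlap. The part of this chromosome in the values of these genes was not tested.

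Gene lists were described by their relative density, in which 1 is the density of all gene bodies of the library. Of the 32 oocyte genes, 23 had a gene body and 18 held a peak. Their relative density was 1.56, 1.34 and 1.44 in CabZ Het and 2.08, 3.61 and 2.93 in CabZ KO libraries, and the genotypes did not overlap. These values rest on 0.443 Mb and on 12, 17 and 29 peaks in CabZ Het and 21, 15 and 19 in CabZ KO. The list has much RNA, with a median of 126 FPKM in CabZ Het. All genes of at least 10 FPKM lay at 1.29 to 1.40 in CabZ Het and 2.03 to 2.59 in CabZ KO, so the separation is not particular to oocyte genes. Zp2 (chr7:120126772-120145292), which encodes a protein of the egg coat, held 2, 1 and 3 peaks in CabZ Het and 3, 1 and 5 in CabZ KO, at 115 to 187 FPKM and 102 to 124 FPKM. Padi6, needed for the cytoplasmic lattices of the oocyte, held 1, 1 and 3 peaks and then 2, 3 and 2, and Nlrp14 held 0, 0 and 3 and then 1, 3 and 3. Cnot6l, which encodes a deadenylase of maternal RNA, was the longest of these examples and ran the other way, with 5, 8 and 2 peaks in CabZ Het and 0, 1 and 2 in CabZ KO. None of the 29 oocyte genes tested passed the RNA test in either direction, with a median log2 difference of −0.26 against −0.02 over all genes tested.

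**Figure D5:**
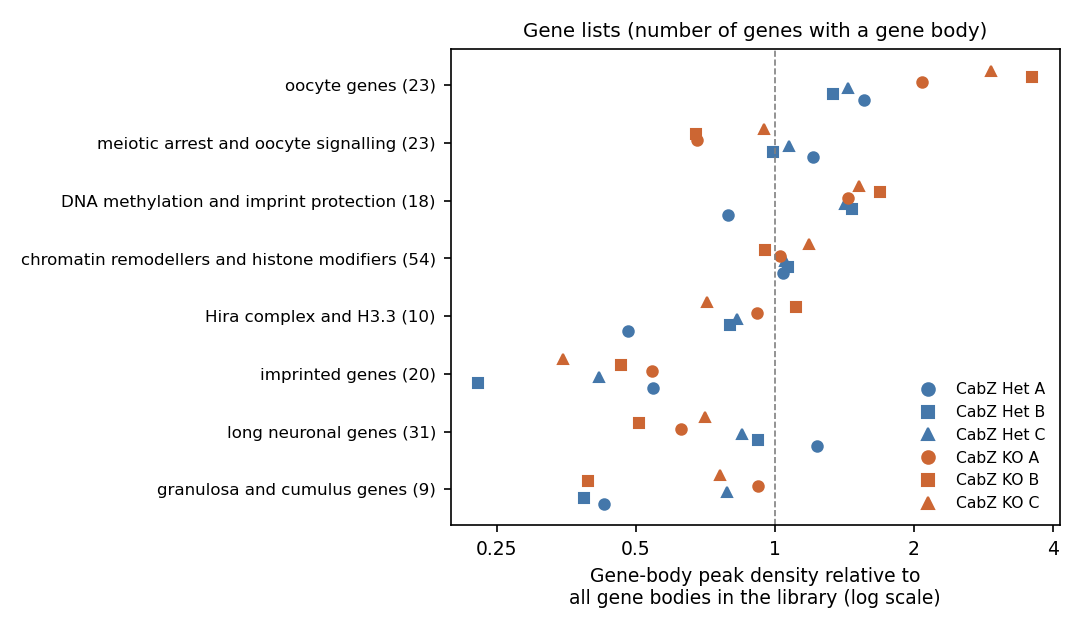
Peak density of gene lists relative to all gene bodies of the same library (ratio, log scale, horizontal axis, where 1 is the mean of all bodies), for each of 3 CabZ Het and 3 CabZ KO libraries (points). Oocyte genes lie at 1.34 to 1.56 in CabZ Het and 2.08 to 3.61 in CabZ KO, and long neuronal genes at 0.850 to 1.23 and 0.508 to 0.707.

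Long neuronal genes, such as those for cell adhesion proteins of the synapse, carry almost no RNA in oocytes (median 0.0058 FPKM in CabZ Het). All 31 of them in the table held a peak, and their relative density was 1.23, 0.921 and 0.850 in CabZ Het and 0.627, 0.508 and 0.707 in CabZ KO libraries, with no overlap. Cdh13, a cadherin gene, held 99, 56 and 130 peaks in CabZ Het and 36, 10 and 17 in CabZ KO, and Csmd1 84, 48 and 63 and then 28, 7 and 15. Auts2 ran against the list, with 25, 57 and 66 peaks in CabZ Het and 44, 18 and 56 in CabZ KO, its mean relative density being 1.53 and 2.41. Genes of meiotic arrest and oocyte signalling lay at 1.21, 0.991 and 1.07 in CabZ Het and 0.677, 0.674 and 0.947 in CabZ KO. A large part of these peaks lay in a single long gene, the phospholipase gene Plcb1, with 29, 35 and 54 peaks in CabZ Het and 12, 4 and 11 in CabZ KO. Its body of 674 kb is a large part of the 2.53 Mb of the list. Its own relative density was 2.48, 1.81 and 1.76 in CabZ Het and 0.781, 0.632 and 1.12 in CabZ KO. The separation of the list is therefore not read as a trait of its other genes.

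The other lists overlapped between the genotypes. Genes of DNA methylation and imprint protection lay at 0.792 to 1.47 in CabZ Het and 1.44 to 1.69 in CabZ KO, with Nsd1, a histone H3 lysine 36 methyltransferase gene, at 3, 7 and 5 peaks in CabZ Het and 9, 2 and 9 in CabZ KO. Chromatin remodellers and histone modifiers were at the mean of all bodies in both genotypes (1.04 to 1.07 and 0.953 to 1.19). Imprinted genes were below the mean in all 6 libraries, at 0.228 to 0.545 in CabZ Het and 0.348 to 0.543 in CabZ KO. Granulosa and cumulus genes lay at 0.386 to 0.787 and 0.394 to 0.919. Two-cell-stage genes had too little body for a density, with 0 to 3 peaks per library. In RNA, 2 of the 6 imprinted genes tested rose (Mcts2 and Zrsr1) and 0 fell, and of the 10 two-cell-stage genes tested 3 rose (Ddit3, Gm5039 and Zscan4d) and 1 fell (Zscan4-ps1), beside 2.07% of all genes tested that rose and 0.836% that fell. All 6 were genes without a gene-body peak. Only 2 genes with a gene-body peak were tested in each of these 2 lists.

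The genes of the Hira complex and its partners held few peaks. Their summed relative density was 0.482, 0.80 and 0.827 in CabZ Het and 0.916, 1.11 and 0.714 in CabZ KO libraries, which overlap. Cabin1 itself held 1, 4 and 8 peaks in CabZ Het and 4, 3 and 1 in CabZ KO. Hira held 0, 1 and 4 peaks in CabZ Het and 0 in each CabZ KO library, and Ubn1 0, 1 and 0 in CabZ Het and 3, 0 and 3 in CabZ KO. The H3-H4 chaperone gene Asf1a, at 40.5 to 55.6 FPKM in CabZ Het and 52.3 to 64.4 FPKM in CabZ KO, held none in any library. None of the 8 genes of this list tested for RNA passed both thresholds. Among them, H3f3b, which encodes H3.3 and held 1 peak in CabZ Het C, KO B and KO C each, was read at 350, 289, 371 and 357 FPKM in CabZ Het and 558, 507, 576 and 575 FPKM in CabZ KO, with no overlap (log2(FPKM + 1) difference 0.70, SE 0.11, limma adjusted p = 0.0028). Daxx, which encodes an H3.3 chaperone and has no body beyond 5 kb from a TSS, went from a mean of 1.70 to 3.69 FPKM (difference 0.77, limma adjusted p = 0.013). Both were short of the required 2-fold change on that scale.

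Changes in RNA were rare among the genes that held gene-body peaks. Of 6340 genes tested, 2182 held a gene-body peak in at least 1 library. Of these 2182, 14 (0.642%) rose and 5 (0.229%) fell in CabZ KO oocytes (limma, past both an adjusted p of 0.05 and a 2-fold change), beside 2.07% and 0.836% of all genes tested. Gene length moved with this contrast. Of the 2680 tested genes with no body beyond 5 kb from every TSS, 3.69% rose and 1.53% fell, and of the 1478 with a body but no peak, 1.22% rose and 0.474% fell. Among genes with at least 10 kb of body, 0.368% rose and 0.123% fell of the 1631 with a peak, and 0.221% rose and 0% fell of the 452 without. The part of length in the contrast was not tested further.

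Chst7 (chrX:20059560-20097522), which encodes a sulfotransferase, was read at 3.26, 3.75, 2.45 and 3.10 FPKM in CabZ Het and 13.0, 15.7, 19.4 and 16.2 FPKM in CabZ KO oocytes (log2(FPKM + 1) difference 2.04, SE 0.14, limma adjusted p = 4.0e-05). All CabZ KO libraries were above all CabZ Het libraries, yet the gene held 3, 3 and 1 peaks in CabZ Het and 1 in each CabZ KO library. The phospholipase gene Pla2g4f rose from a mean of 0.169 to 3.45 FPKM, Ms4a6d from 2.48 to 9.37 FPKM, the keratin gene Krt71 from 0.718 to 3.57 FPKM and the anion exchanger gene Slc4a3 from 0.134 to 2.02 FPKM (limma adjusted p at most 6.1e-04). These 4 genes held 2 to 8 gene-body peaks each over the 6 libraries. Rgn (chrX:20549787-20562090), which encodes the calcium-binding protein regucalcin, was read at 21.1, 17.2, 15.6 and 16.3 FPKM in CabZ Het and 7.77, 3.14, 2.62 and 4.56 FPKM in CabZ KO (difference −1.83, SE 0.25, limma adjusted p = 0.0013). Vdac2, which encodes a channel of the outer mitochondrial membrane, fell from a mean of 14.7 to 3.89 FPKM and held 1 gene-body peak in all, and Cd160 (6.27 to 2.05 FPKM), Ppil3 (9.44 to 3.52 FPKM) and Cnn1 (3.40 to 0.951 FPKM) held 3, 5 and 3. Taken as groups, the 14 genes that rose had a relative density of 3.97, 3.43 and 1.30 in CabZ Het and 2.81, 2.10 and 2.69 in CabZ KO libraries, and the 5 that fell 0, 1.75 and 0.737 and then 4.41, 1.78 and 3.44. The first group overlapped between genotypes. The second, which rests on 0 to 6 peaks per library, did not. The 2163 tested genes with a peak that were not called lay at 1.32 to 1.40 in CabZ Het and 1.92 to 2.10 in CabZ KO. They did not overlap either, so the separation is no trait of the genes that fell. All 3 groups were limited to genes that hold a peak, which by itself raises their density.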

How the data were processed

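ATAC-seq peak lists of 6 libraries and the RNA-seq table of 8 libraries of CabZ GV oocytes were used, and the other samples of the series were not used here. Samples were grouped by the genotype and replicate in the sample records. The regions, gene lists and tests were chosen with earlier results of these data known. Per the methods and the submitters' processing notes, the authors aligned ATAC-seq reads to mm10 (GRCm38) with Bowtie2 2.3, discarded PCR duplicates, multiply aligned and mitochondrial reads, and ran MACS2 on each library against 1 genome-wide background. The lists were deposited with the fold enrichment ratio at the summit and with −log10 p and −log10 q values, as the authors' run of MACS2 wrote them, and with a score, 10 times the −log10 q. RNA-seq reads were trimmed with TrimGalore and aligned with STAR 2.5.3a, and Partek's test was used on FPKM. The deposited RNA values are scores in which the authors divided reads by the gene span a second time and added 0.01, so FPKM over the span were restored by subtracting 0.01, multiplying by the span and rescaling. The test was planned for either unit. Reads on genes were 9103057 to 12447060 per library, and 81.2 to 83.2% of low values lay within 0.1 of a whole read, too few for a count test. Precision from these depths covers counting error only.

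Start and stop of genes came from the table, and strand, exons and sequence from GENCODE M21 and GRCm38 in the reference. Shares and density ratios were compared with two-sided exact permutation tests over libraries (smallest p 0.1 for 3 against 3, 0.03125 for sign flips of 6). Fold enrichment (log2, regions in all 6 libraries) and log2(FPKM + 1) of genes whose mean reached 1 FPKM were fitted over all regions or genes with limma 3.58.1 in R 4.3.3, with Benjamini-Hochberg adjustment. Other steps used Python 3.11.15, pandas 2.3.3, NumPy 2.4.6 and SciPy 1.17.1, and each fit was first tested on simulated data with known changes. Genes were named by rule: the 10 with most gene-body regions in all 6 libraries, the 10 of highest density with at least 50 kb of body, the 5 regions of highest enrichment in all 6 libraries and in each genotype alone, the 5 genes with peaks that rose and the 5 that fell most, members of the lists, and the Hira complex. Genes that separate the genotypes, and the windows from a single genotype, were chosen after their values were seen. Alternatives covered the distance from TSSs, peak strength and number, length and expression scales, merging, pseudocounts, filters, a replicate block and leaving out each library. The flank comparison and the class of at least 1 FPKM were added after seeing the data. Replicate numbers did not pair the samples. Reads shared by overlapping genes cannot be told apart.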

Additional observations from a re-analysis of the deposited data

Results flagged for a closer look

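For the genes whose RNA the report gives, 66 groups of 4 libraries were examined for a lone library, and chance sets 1 apart in about 1 of 20 groups. A library stood apart in 2 of them. The RNA of Mdm4 was 36 FPKM in CabZ KO library 2 and 45.4 to 47.1 FPKM in the other CabZ KO libraries. That of Klhl5 was 0.0123 FPKM in CabZ Het library 4 and 0.0039 to 0.0044 FPKM in the others, all far under the lowest class limit of 0.1 FPKM. Some ratios lay on opposite sides of 1 in all libraries of the 2 genotypes. The body over flank ratio was lower than 1 in CabZ Het and higher than 1 in CabZ KO libraries for genes at 0.1 to 1 FPKM (log2 difference 0.81), at 1 to 10 FPKM (0.91) and at or above 10 FPKM (1.14). The density of genes of at least 1 FPKM over that of genes under 0.1 FPKM did so in genes of 10 to 30 kb (log2 difference 0.97). Spearman's rho of density against FPKM over all genes with 10 kb of body was below 0 in all CabZ Het and above 0 in all CabZ KO libraries (difference 0.11). These 5 differences were picked for this separation, which fixes the outcome of a permutation test over 3 against 3 libraries, so they were not tested further.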

How the results depend on the processing

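The gene-body share, the density ratio and the body over flank ratio stayed higher in the mean of CabZ KO oocytes under every alternative run. The differences were 4.96 to 10.4 percentage points, and 0.41 to 1.16 and 0.54 to 1.22 on the log2 scale. Among peaks of a −log10 q of at least 5, however, the genotypes overlapped in both ratios. The log2 density ratio was then 0.74, 0.64 and 0.56 in CabZ Het and 1.44, 0.60 and 1.13 in CabZ KO (exact permutation p = 0.3). In a design of 3 against 3 libraries the p of such differences could not fall below 0.1, so that it bears on no threshold. The density excess of genes of at least 10 FPKM no longer passed with density per kb of the whole gene span (log2 0.44) and in genes of 10 to 30 kb (0.53). Without each ATAC-seq library in turn it was 0.83 to 1.10, where 5 libraries allow no p under 0.0625. In genes over 100 kb the class of at least 10 FPKM held no peak in some libraries, so only the class of at least 1 FPKM was run there. Gene-body regions found in CabZ Het alone numbered 39 and those in CabZ KO alone 1 at a −log10 q of at least 5, beside 132 and 3 of all regions. With equal peak numbers they were 180 and 219, beside 640 and 433. With summits grouped within 250 bp they were 393 and 86, beside 1375 and 173. Without single ATAC-seq libraries they were 1288 to 4683 and 128 to 611, beside 4350 to 15245 and 233 to 1172 of all regions. Changed gene-body regions numbered 2 of 7 tested at a −log10 q of at least 5, both higher, beside 3 higher and 0 lower of all 32 regions. With medians aligned there were 3 (1 higher and 2 lower), beside 2 higher and 9 lower of all regions. Without the pseudocount there were 66, all higher, beside 136 higher and 1 lower of all regions. Without single libraries there were 1 to 2, beside 1 to 3 higher and 0 to 4 lower of all regions. With a pseudocount of 0.1 FPKM, 39 genes with gene-body peaks rose and 15 fell, with a filter at 5 FPKM 5 and 3, by adjusted p alone 130 and 87, and among genes with a peak in all 6 libraries 1 and 0. Counts over all genes at these settings are not given here, so these are not set beside a share. Spearman's rho was −0.092 in CabZ Het and −0.025 in CabZ KO at a −log10 q of at least 5, 0.0042 and 0.15 with expression not divided by length, and 0.11 in CabZ KO per kb of exons. The causes of these shifts were not tested. Same-numbered libraries did not deviate together (correlations of −0.18 to 0.14 for RNA and −0.071 to 0.010 for ATAC-seq, with 0 of 4 and 1 of 3 CabZ Het libraries closest to their own number). With a replicate block the share differed by the same 6.48 points (exact sign-flip p = 0.25, the smallest that 3 pairs allow), 1 region changed, and 14 genes rose and 5 fell.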
